A study of Homo sapiens with 4 samples.

Results

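The G1/S transition and DNA replication genes were followed in MKN45, an established human gastric adenocarcinoma cell line of epithelial type. The cells were exposed to lipopolysaccharide (LPS), the main outer-membrane glycolipid of Gram-negative bacteria, prepared from Helicobacter pylori. The list held 36 named genes, and all 36 were measured, among 16252 genes tested. Each gene was represented by the Affymetrix probe set that the platform annotation assigns to it alone and that had the highest mean over the 4 arrays. Untreated cells received fresh medium and treated cells received medium with 10 µg/ml H. pylori LPS, and total RNA was taken from both after 8 h, with 2 arrays in each group (replicates 1 and 2). No transgene, deletion or other agent is labelled in either group. The series text speaks of a pair of independent experiments, and the p-values measure the spread between these arrays only. All cells came from a single tumour line.

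These genes act in order as a cell commits to copying its DNA. Cyclin D and cyclin E kinases inactivate the retinoblastoma protein and free E2F transcription factors, which drive the genes for origin licensing, the replicative helicase, DNA polymerases and deoxynucleotide synthesis. Licensing loads an inactive ring of MCM proteins on origins in G1, and the ring is activated in S phase when CDC45 and the GINS complex join it. In the gastric epithelium, dividing cells occupy the gland neck, and infection with H. pylori is known to change cell turnover there, while a cultured tumour line holds cycling cells throughout.

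The promoter sequences of these genes were searched for motif letters. Since E2F factors are known to drive such genes, as said above, E2F letters are not independent of the choice of the list. RefSeq promoter windows (assembly GRCh38.p14, 250 bases before to 50 after each gene's start) matched 31 of the 36 genes. The genes with no matching window were MCM4, MCM5, CCND1, CCNE2 and E2F8. The E2F motif was searched on both strands as TTTCCCGC, TTTCGCGC, TTTGCCGC or TTTGGCGC. At least 1 of these stood in 16 of the 31 windows (51.6%), against 3.33% of 27305 promoter windows of all genes. It also stood in 17 of 59 windows (28.8%) of the other replication genes described below, and in 3 of 28 (10.7%) of a G2/M list. The 31 windows held 23 matches in all, of which 6 overlapped another E2F match on the opposite strand and 1 overlapped a CCAAT box. MCM6 had 4 matches, and MCM2, MCM3, MCM7 and E2F1 had 2 each.

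The windows printed here are those of the genes with the lowest unadjusted p-values that had a window (RFC4, PRIM1, UNG and MCM7) and of 3 landmark genes (E2F1, CDC6 and RRM2). Each runs from 220 bases before to 30 after the start, 250 bases 5′ to 3′ on the gene's strand. Capitals mark an E2F match, and a CCAAT box on either strand (CCAAT or ATTGG). In the MCM7 window a CCAAT box shares letters with the E2F match near the start.
E2F1 at chr20:33686356-33686605, minus strand: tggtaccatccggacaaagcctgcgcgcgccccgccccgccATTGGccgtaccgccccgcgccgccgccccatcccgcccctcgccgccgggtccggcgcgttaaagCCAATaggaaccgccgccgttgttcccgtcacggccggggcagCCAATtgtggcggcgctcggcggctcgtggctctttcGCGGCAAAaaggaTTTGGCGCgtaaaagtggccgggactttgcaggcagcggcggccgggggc
MCM7 at chr7:100101368-100101617, minus strand: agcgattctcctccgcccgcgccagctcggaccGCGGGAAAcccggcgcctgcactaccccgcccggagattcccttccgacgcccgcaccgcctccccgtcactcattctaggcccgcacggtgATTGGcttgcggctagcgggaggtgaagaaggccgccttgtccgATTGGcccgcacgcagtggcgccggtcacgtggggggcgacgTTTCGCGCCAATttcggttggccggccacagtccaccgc
CDC6 at chr17:40287659-40287908, plus strand: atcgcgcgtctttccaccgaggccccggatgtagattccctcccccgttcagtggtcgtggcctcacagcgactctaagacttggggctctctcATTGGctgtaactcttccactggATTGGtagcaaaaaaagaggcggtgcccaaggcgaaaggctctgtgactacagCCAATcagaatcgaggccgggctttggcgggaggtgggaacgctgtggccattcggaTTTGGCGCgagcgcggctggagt
RRM2 at chr2:10122519-10122768, plus strand: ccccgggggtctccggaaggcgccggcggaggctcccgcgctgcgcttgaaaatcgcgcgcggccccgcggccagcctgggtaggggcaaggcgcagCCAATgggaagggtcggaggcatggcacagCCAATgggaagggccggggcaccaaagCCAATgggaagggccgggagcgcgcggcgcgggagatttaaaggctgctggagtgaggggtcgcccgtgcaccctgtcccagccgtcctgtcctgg
RFC4 at chr3:186806453-186806702, minus strand: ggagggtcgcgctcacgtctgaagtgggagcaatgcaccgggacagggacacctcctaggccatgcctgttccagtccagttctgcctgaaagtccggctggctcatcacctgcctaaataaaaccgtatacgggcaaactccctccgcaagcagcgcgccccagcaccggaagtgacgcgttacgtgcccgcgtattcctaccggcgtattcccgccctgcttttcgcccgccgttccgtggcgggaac
PRIM1 at chr12:56752294-56752543, minus strand: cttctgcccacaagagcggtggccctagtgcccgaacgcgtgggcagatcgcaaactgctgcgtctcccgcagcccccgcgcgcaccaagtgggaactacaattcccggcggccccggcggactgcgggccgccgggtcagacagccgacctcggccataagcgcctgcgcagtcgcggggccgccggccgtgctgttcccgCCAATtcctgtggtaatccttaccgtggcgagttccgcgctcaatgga
UNG at chr12:109097377-109097626, plus strand: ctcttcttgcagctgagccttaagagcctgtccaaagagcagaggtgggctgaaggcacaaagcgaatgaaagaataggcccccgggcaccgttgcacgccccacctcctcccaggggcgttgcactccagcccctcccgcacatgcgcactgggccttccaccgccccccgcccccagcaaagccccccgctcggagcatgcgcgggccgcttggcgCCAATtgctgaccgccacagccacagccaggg
E2F1, MCM7 and CDC6 held E2F letters, and RRM2, RFC4, PRIM1 and UNG held none of the 4 spellings in the whole window.

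The other motifs were counted in the same windows. The CHR motif (TTTGAA, both strands), known from promoters of mitotic genes, was in 1 of 31 windows (3.23%), that of RRM1, against 15.4% of all windows and 18 of 28 windows (64.3%) of a G2/M list. CCAAT boxes stood in 19 of 31 (61.3%), against 35.7% of all windows. They stood in 28 of 59 windows (47.5%) of the other replication genes and in 22 of 28 (78.6%) of the G2/M list. The NF-kB motif stood in 3 of 31 (9.68%), those of MCM7, RRM2 and CHAF1B, against 5.72% of all windows and 4 of 5 windows of the chemokine genes CCL20, CXCL1, CXCL2, CXCL3 and CXCL8. A match is a match of letters and was not measured as a bound site.

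**Figure D1:**
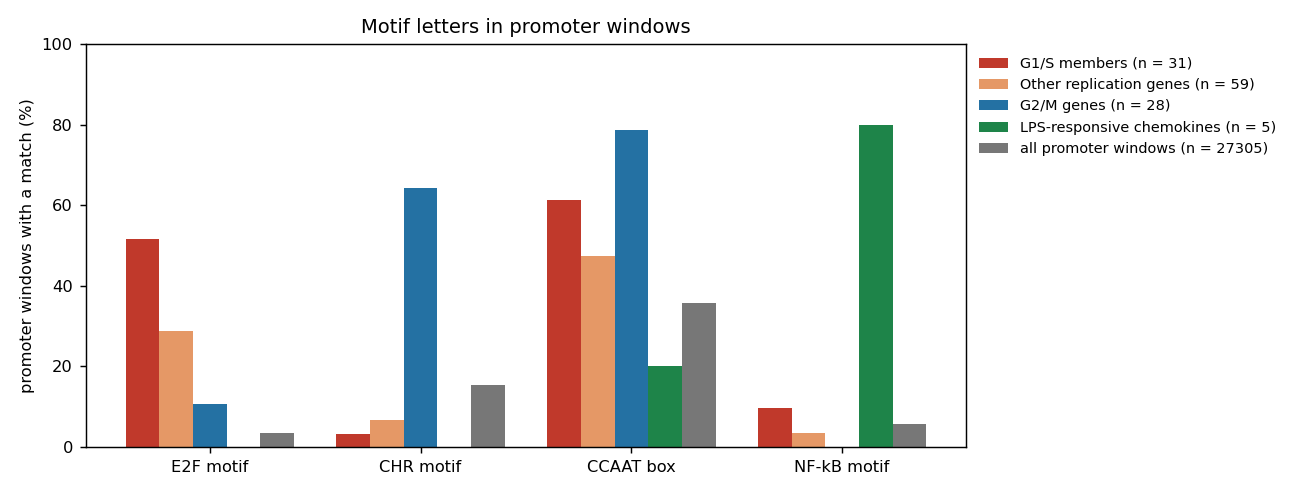
Share of promoter windows (%, vertical axis) that hold each motif, for 31 G1/S and replication genes, 59 other replication genes, 28 G2/M genes, 5 LPS-responsive chemokine genes and all 27305 windows. E2F letters stood in 51.6% of the windows of the G1/S and replication genes, in 28.8% of those of the other replication genes and in 3.33% of all windows.

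After 8 h of LPS no gene of the list changed past the threshold. By limma, 0 of 36 had a Benjamini-Hochberg adjusted p under 0.05, and 10 of 16252 genes did (0.0615%), or 6 and 19 without untreated replicate 1 and 2, and 5 and 4 without LPS replicate 1 and 2, in that order. At an unadjusted p under 0.05, RFC4, PRIM1, UNG and E2F8 were lower and CCND1 and MCM7 were higher. That made 4 of 36 lower beside 9.63% of all genes tested, and 2 of 36 higher beside 4.68%, so both counts lay near the background. Counts at this threshold shifted both in the list and over all genes when an array was left out. The list's median log2 difference was 0.0042 without untreated replicate 1 and -0.03 without untreated replicate 2, beside -0.0056 and -0.0067 over all genes. Without LPS replicates 1 and 2 it was -0.01 and -0.03, beside -0.0022 and -0.013. The smallest adjusted p in the list was 0.204, for RFC4. Differences in the list ran from -0.27 to 0.28 on the log2 scale (LPS minus untreated), with a median of -0.03, beside a median of -0.0047 over all genes tested. All 5 chemokine genes named above passed, with log2 differences of 1.02 for CXCL3 to 2.93 for CCL20. They were the only genes that passed upward, and the lists were chosen with earlier results of these data known. Their passing is therefore no independent check of the fit. CXCL2 missed the threshold without LPS replicate 2, without the variance trend and in a model fitted over all probe sets. With _x_at and _s_at probe sets left out, CCL20, CXCL1 and CXCL3 were called. The only CXCL2 probe set above the filter is of the _x_at type, so CXCL2 was not measured in that fit. The CXCL8 probe set used here was left out of it too.

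The width of the intervals was set beside the differences. Every 95% interval of the 36 brightest probe sets lay within 1.5-fold of no change in either direction. The lowest bound was 0.722-fold for PRIM1 and the highest 1.46-fold for CCND1. The limma intervals use a variance that borrows from all genes tested. CCND1 had standard deviations of 0.25 untreated and 0.19 with LPS, beside a limma standard error of 0.11. Its interval is therefore narrower than its own arrays alone would give. The median distance from the estimate to the interval's end was 0.16 on the log2 scale. In the list the median absolute difference between groups was 0.06, the median absolute difference between the untreated arrays 0.10 and that between the LPS arrays 0.05. The difference between groups exceeded both within-group differences in 11 of the 36 genes (30.6%), beside 32.1% of all genes tested.

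**Figure D2:**
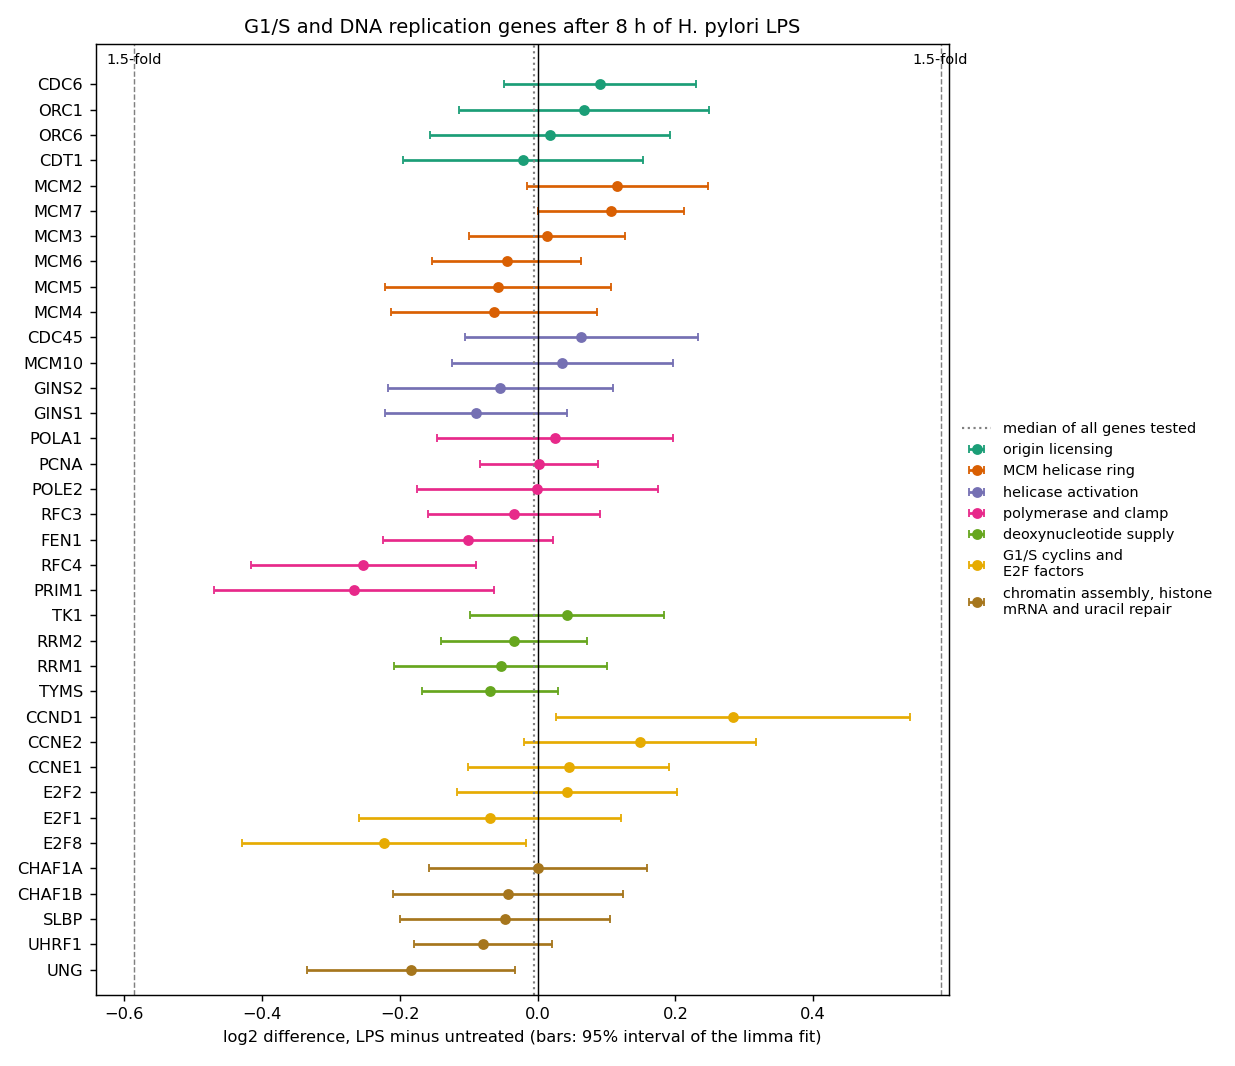
Log2 difference, LPS minus untreated (horizontal axis), of each of the 36 genes with the 95% interval of the limma fit, coloured by role. The intervals of RFC4, PRIM1, UNG, E2F8, CCND1 and MCM7 do not reach 0, and none reaches the dashed lines at 1.5-fold.

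Origin licensing genes gave no member at an unadjusted p under 0.05. ORC1 and ORC6, subunits of the origin recognition complex, differed by 0.07 and 0.02. CDC6, which loads the helicase together with CDT1, lay at 10.89 and 10.82 on the untreated arrays and at 10.97 and 10.93 on the LPS arrays (log2 levels, replicates 1 and 2). Both LPS arrays were above both untreated arrays, and the difference was 0.09 (95% interval -0.05 to 0.23, limma adjusted p = 0.539). A second CDC6 probe set differed by 0.15 with the same separation of arrays. CDT1 differed by -0.02, and its second probe set by 0.06.

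The MCM2 to MCM7 ring, the motor of the replicative helicase, had 3 genes above and 3 below 0. MCM2 lay at 12.04 and 12.18 untreated and at 12.20 and 12.26 with LPS, a difference of 0.12 (interval -0.02 to 0.25, limma adjusted p = 0.401). MCM7 lay at 12.29 and 12.36 untreated and at 12.44 and 12.43 with LPS, a difference of 0.11 (interval 0.0013 to 0.21, limma adjusted p = 0.345). In both genes the LPS arrays were the higher pair, with the MCM2 values close together at the edge of the groups. The second MCM7 probe set had overlapping groups and differed by -0.02, and the mean of the MCM7 probe sets differed by 0.05 (unadjusted p = 0.380 by limma).

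The remaining ring subunits overlapped between the groups. MCM3 differed by 0.01, MCM4 by -0.06, MCM5 by -0.06 (second probe set 0.02) and MCM6 by -0.04. MCM4 had 5 probe sets, which ran from -0.21 to 0.16 and so did not share a direction. In the stoichiometric ring as a whole the median was -0.02.

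Factors that switch the ring on also showed no member at an unadjusted p under 0.05. GINS1, a subunit of the GINS complex, lay at 11.58 and 11.48 untreated and at 11.42 and 11.46 with LPS, a difference of -0.09 (interval -0.22 to 0.04, limma adjusted p = 0.524). The LPS arrays were the lower pair for GINS1, by 0.02 between the nearest arrays of replicate 2. GINS2 differed by -0.05 (further probe sets 0.05 and 0.0018), CDC45 by 0.06 and MCM10, which supports helicase activation, by 0.04. The other MCM10 probe sets gave -0.10 and -0.15, with the LPS arrays as the lower pair on each, against the sign of the brightest.

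Among polymerase and clamp genes lay the lowest values of the list. RFC4, a subunit of the clamp loader that places PCNA on DNA, lay at 11.19 and 11.01 untreated and at 10.85 and 10.85 with LPS. The LPS arrays gave nearly the same value and the untreated arrays differed by 0.18, with no overlap between groups. The difference was -0.25 (interval -0.42 to -0.09, 83.9% of the untreated level, limma adjusted p = 0.204). PRIM1, the catalytic subunit of primase, lay at 10.94 and 10.66 untreated and at 10.56 and 10.51 with LPS, a difference of -0.27 (interval -0.47 to -0.06, 83.1% of the untreated level, limma adjusted p = 0.251). For PRIM1 the untreated replicate 1 array stood highest, 0.28 above the other untreated array, and without it the difference was -0.13. Without it the RFC4 difference was -0.16.

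The remaining genes of this role overlapped between the groups, except FEN1. PCNA, the sliding clamp that holds polymerases on DNA, lay at 13.03 and 13.01 untreated and at 13.02 and 13.02 with LPS, a difference of 0.0022 (interval -0.08 to 0.09). RFC3, another subunit of the clamp loader, differed by -0.03 with further probe sets at 0.04 and 0.00019. FEN1, which trims Okazaki fragments, differed by -0.10 (second probe set -0.0073), POLA1, the catalytic subunit of the polymerase that primes DNA synthesis with primase, by 0.03, and POLE2, a subunit of the leading-strand polymerase, by -4.7e-05. Differences between genes were not tested.

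Of the deoxynucleotide supply genes, 0 of 4 reached an unadjusted p under 0.05. TYMS, thymidylate synthase, lay at 12.84 and 12.77 untreated and at 12.76 and 12.72 with LPS, a difference of -0.07 (interval -0.17 to 0.03, limma adjusted p = 0.502). RRM2, the S-phase subunit of ribonucleotide reductase, lay at 12.15 and 12.15 untreated and at 12.13 and 12.10 with LPS, a difference of -0.03 (interval -0.14 to 0.07, limma adjusted p = 0.782). On the brightest probe set of both genes the LPS arrays were lower than the untreated arrays by hundredths of a log2 unit at their nearest. Further TYMS probe sets differed by 0.05 and -0.04 and the second RRM2 probe set by -0.01, all with overlapping groups. RRM1, the large reductase subunit, differed by -0.05 and TK1, thymidine kinase, by 0.04 (second probe set -0.0040).

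Cyclins and E2F factors held values of both signs. CCND1, cyclin D1, lay at 11.75 and 12.10 untreated and at 12.08 and 12.34 with LPS, a difference of 0.28 (interval 0.03 to 0.54, 1.22-fold, limma adjusted p = 0.318). Its groups overlapped, since the higher untreated array lay above the lower LPS array. Without untreated replicate 1 the CCND1 difference was 0.10. The second CCND1 probe set differed by -0.08, and the mean of the CCND1 probe sets by 0.10 (unadjusted p = 0.359 by limma).

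E-type cyclins were above 0 on all of their probe sets. CCNE1 lay at 10.32 and 10.35 untreated and at 10.39 and 10.37 with LPS, a difference of 0.05 (interval -0.10 to 0.19). Its second probe set gave 0.16 at a mean level of 6.45, near the filter of 6.06. CCNE2 differed by 0.15 (interval -0.02 to 0.32, limma adjusted p = 0.401) and by 0.41 on its second probe set, where the groups overlapped. The untreated arrays of that fainter probe set lay far apart, at 7.49 and 6.79. No E-type cyclin reached an unadjusted p under 0.05 in this fit.

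Of the E2F factors, E2F1, an activator of S-phase genes, lay at 9.55 and 9.67 untreated and at 9.45 and 9.63 with LPS, a difference of -0.07 (interval -0.26 to 0.12), with 0.05 on its second probe set. E2F2, also an activator, differed by 0.04, with further probe sets at 0.17 and 0.08. E2F8, an atypical member that represses E2F target genes, lay at 8.79 and 8.55 untreated and at 8.41 and 8.48 with LPS, a difference of -0.22 (interval -0.43 to -0.02, 85.7% of the untreated level, limma adjusted p = 0.326). The untreated replicate 1 array stood 0.24 above the other untreated array for E2F8, and without it the difference was -0.11.

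Chromatin and repair genes were mostly below 0, 4 of 5 of them. UNG, the glycosylase that removes uracil from DNA, lay at 10.13 and 10.15 untreated and at 9.98 and 9.94 with LPS, a difference of -0.18 (interval -0.33 to -0.03, 88.1% of the untreated level, limma adjusted p = 0.278). Of the 4 lower genes at an unadjusted p under 0.05, UNG had the smallest gap between its untreated arrays, 0.02. UHRF1, which guides maintenance DNA methylation after replication, differed by -0.08. CHAF1B and CHAF1A, subunits of the histone chaperone that follows the fork, differed by -0.04 and 7.85e-05, and further CHAF1A probe sets ran from -0.11 to 0.08. SLBP, which binds the ends of replication-dependent histone mRNAs, differed by -0.05.

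**Figure D3:**
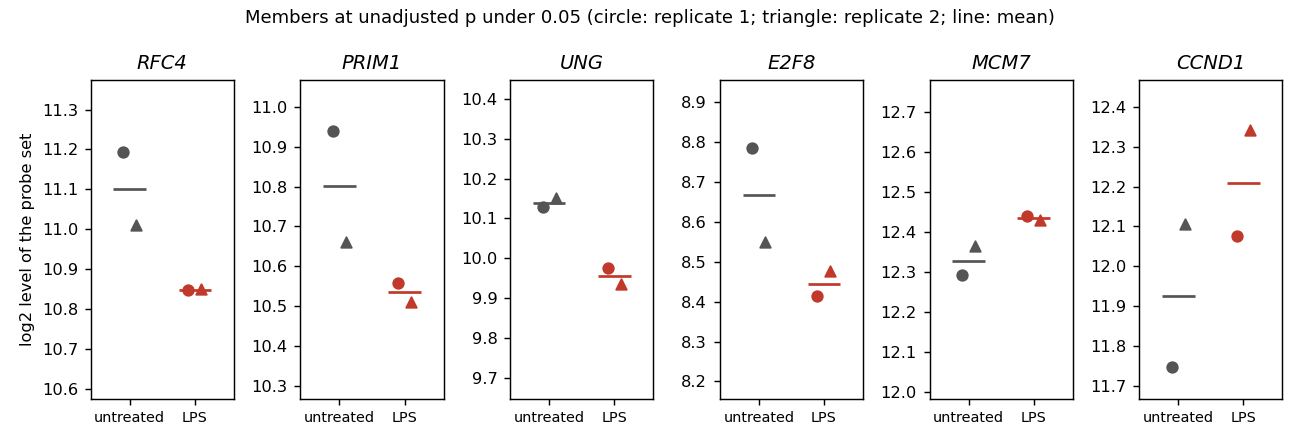
Log2 level of the brightest probe set on each of the 4 arrays for the 6 genes at an unadjusted p under 0.05, each panel spanning 0.8 log2 units; lines are group means. RFC4 and UNG show separate groups with close LPS arrays, PRIM1 and E2F8 a high untreated replicate 1, and CCND1 overlapping groups.

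Further probe sets bear on how far a gene's value can be read. The 36 genes had 66 probe sets, all above the filter on low values, and 20 genes had more than 1. Of these 20, 4 were lower on every probe set (MCM6, FEN1, RRM1 and RRM2), 4 were higher on every probe set (CDC6, CCNE1, CCNE2 and E2F2) and 12 had probe sets of both signs. The median gap between the highest and lowest probe set of a gene was 0.11. RFC4, PRIM1, UNG and E2F8 had 1 probe set each, so none of the 4 lower genes had a second measurement. In a limma fit over all 38229 probe sets, 3 of the 66 were lower at an unadjusted p under 0.05 (8.02% of all probe sets tested) and 0 were higher (3.69%), and 0 passed the adjusted threshold.

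**Figure D4:**
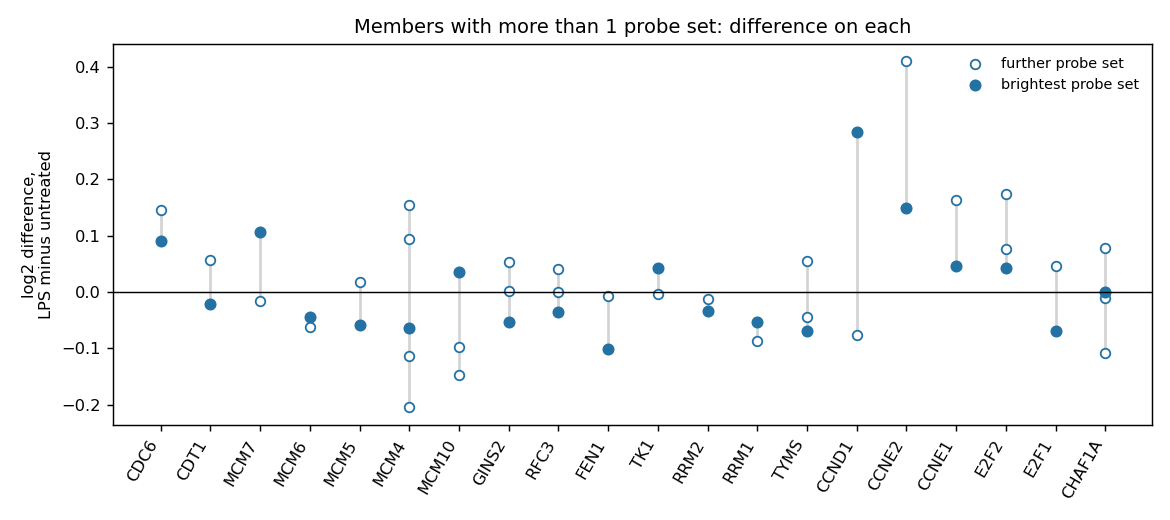
Log2 difference, LPS minus untreated (vertical axis), on every probe set of the 20 genes with more than 1; filled points are the brightest probe set. In 12 genes the points fall on both sides of 0, among them MCM4, CCND1 and MCM7.

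By direction alone the shares in the list lay near those of all genes. Of the 36, 20 were below 0 (55.6%), beside 51.8% of all genes tested. Both LPS arrays lay below both untreated arrays in 9 of 36, beside 25.7% of all genes, and above in 6 of 36, beside 19.7%. The list lay in the brighter part of the arrays, with 27 genes in bin 4 and 9 in bin 3 of 4 equal bins from faint to bright (probe sets differ in brightness, so levels do not rank genes by amount). In bin 4 the median difference was -0.03 for the 27 genes and -0.04 for all genes, of which 16.1% were lower at an unadjusted p under 0.05.

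The sign of the list's median changed with the scaling of the arrays, and so did that of all genes. The list's median was 0.02 after quantile normalization and after cyclic loess, with 13 and 16 genes below 0, and -0.04 after median centring. Over all genes the median was 0.013, 0.010 and -0.019 in that order. The sign also changed without untreated replicate 1 (0.0042, beside -0.0056 over all genes). Over all genes, quantile normalization put 7.19% in each direction at the unadjusted threshold, and cyclic loess put 7.51% lower and 6.85% higher. After either quantile normalization or cyclic loess 5 genes of the list were higher at an unadjusted p under 0.05 (CCND1, CCNE2, CDC6, MCM2 and MCM7). Those lower were PRIM1 and RFC4 after quantile normalization, with E2F8 in addition after cyclic loess. Over the 15 alternatives the log2 difference of RFC4 ran from -0.34 to -0.16 and that of PRIM1 from -0.41 to -0.13. That of E2F8 ran from -0.34 to -0.11 and that of CCND1 from 0.10 to 0.46. In the 14 alternatives that measured them, UNG ran from -0.20 to -0.13 and MCM7 from 0.05 to 0.15. The alternatives refit the same arrays, and these genes were picked by their p-values, so the ranges are no independent support.

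**Figure D5:**
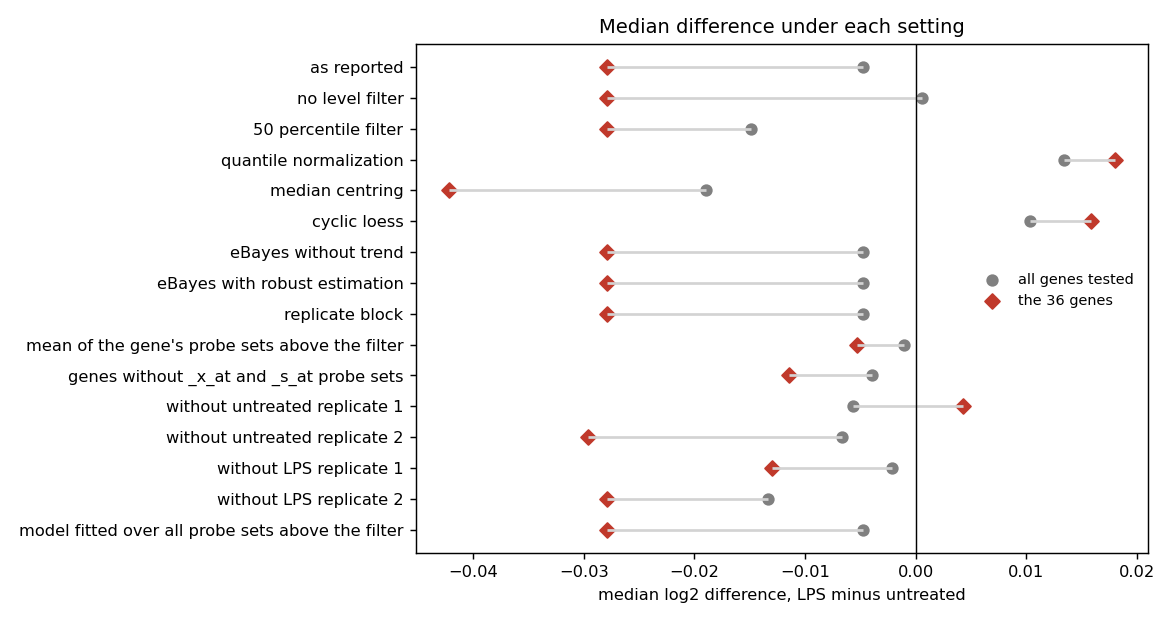
Median log2 difference, LPS minus untreated (horizontal axis), of the 36 genes (diamonds) and of all genes tested (circles) as reported and under 15 alternatives. The list's median is -0.03 as reported, 0.02 after quantile normalization or cyclic loess, and 0.0042 without untreated replicate 1.

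The differences were also set beside the promoter letters. The 16 genes with a match had a median difference of -0.01 (from -0.09 to 0.12), and at an unadjusted p under 0.05 none was lower and 1 was higher (MCM7). The 15 genes with a window and no match had a median of -0.03 (from -0.27 to 0.07), with 3 lower (RFC4, PRIM1 and UNG) and 0 higher. Over all genes tested 9.63% were lower and 4.68% higher, and this split was not tested.

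Other genes of the pathway, 73 chosen from regulators, polymerase subunits, fork protection and chromatin factors, had 71 above the filter, and 0 of them passed the adjusted threshold. At an unadjusted p under 0.05, 12 were lower (16.9%, beside 9.63% of all genes) and 3 higher (4.23%, beside 4.68%), with a median difference of -0.04. Of all genes in brightness bins 3 and 4, 13.2% and 16.1% were lower, with medians of -0.03 and -0.04. The levels of the 71 genes ran from 6.97 to 12.64. After quantile normalization or cyclic loess 7 of the 71 were lower and 7 higher. Over all genes, quantile normalization put 7.19% in each direction, and cyclic loess put 7.51% lower and 6.85% higher. Counts shifted in these genes and over all genes when an array was left out. The median of the 71 was -0.02 without untreated replicate 1 and -0.08 without untreated replicate 2, beside -0.0056 and -0.0067 over all genes. It was -0.04 without either LPS array, beside -0.0022 and -0.013. The higher genes as reported were CDKN1A (p21, an inhibitor of cyclin-dependent kinases; 0.30, limma adjusted p = 0.177), CCND2 (cyclin D2; 0.27) and, named after its value was seen, DNMT1 (maintenance DNA methyltransferase; 0.15).

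The lower genes with the smallest p-values were RBL2 (a pocket protein related to RB1; -0.24, limma adjusted p = 0.201), MTBP (a partner of the origin-firing factor TICRR; -0.27), CCNA2 (cyclin A2; -0.16), CDC7 (the kinase that fires origins; -0.23), POLD3 (a polymerase delta subunit; -0.20) and TOPBP1 (a scaffold of origin firing and checkpoint signalling; -0.21). By role, the lower genes were 4 of 11 in helicase activation, 5 of 20 kinases, pocket proteins and E2F factors and 1 of 5 in origin licensing. They were 1 of 7 in chromatin assembly, 1 of 17 in polymerase and clamp, 0 of 7 in fork protection and 0 of 4 in deoxynucleotide supply. Over all genes 9.63% were lower, and in brightness bins 3 and 4 the shares were 13.2% and 16.1%. Differences between roles were not tested. CDK2 differed by -0.0048, CDK4 by 0.02 and RB1 by -0.12 (interval -0.29 to 0.05).

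A G2/M list of 34 genes, the neighbouring phase, had a median of -0.06, with 11 genes lower (32.4%) and 1 gene higher at the unadjusted threshold, beside 9.63% lower and 4.68% higher over all genes and 16.1% lower among the 4063 brightest genes (levels of 10.02 to 14.94), and 0 passed. The difference between the lists was not tested.

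Array measures were set beside these values. Bacterial poly-A transcripts added before labelling were lower with LPS by a mean of 0.48 over 24 probe sets (means of 8.60 and 8.25 untreated, 7.98 and 7.92 with LPS). The 3 probe sets of 18S ribosomal RNA averaged 8.73 and 8.79 untreated and 7.97 and 8.41 with LPS, so the LPS arrays were the lower pair there too. Those of 28S averaged 9.68 and 9.82 untreated and 9.77 and 9.92 with LPS, and the groups overlapped. The gap between 3′ and 5′ probe sets of beta-actin, a measure of RNA and labelling quality, was 0.64 and 0.86 untreated and 0.39 and 0.63 with LPS. That of GAPDH was 0.02 and 0.07 untreated and 0.0010 and 0.11 with LPS, with overlapping groups. Their part in the values above was not tested. All 14 epithelial markers lay above the filter, from 8.80 for TFF3 to 14.62 for KRT18, with a summed log2 level of 16.84 to 16.89 on the 4 arrays. The leukocyte markers PTPRC, at 5.53, and CD14, at 5.54, and the endothelial marker CDH5, at 5.45, lay under the filter of 6.06, and the other markers measured lay above it, up to 8.55 for CD53 and 9.17 for COL1A1. CD53, a leukocyte surface protein, was 0.33 higher with LPS on the log2 scale (unadjusted p = 0.0108, limma adjusted p = 0.23) and was the only marker above the filter at an unadjusted p under 0.05. Summed levels were 10.14 and 10.15 untreated and 10.24 and 10.31 with LPS for 8 leukocyte markers on the array (6 above the filter), and 10.61 and 10.73 untreated and 10.77 and 10.73 with LPS for 9 fibroblast and endothelial markers (8 above the filter). Their part in the values was not tested either. In bulk RNA such as this, a change in the share of cells in S phase and a change in transcript per cell cannot be told apart.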

How the data were processed

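Values were the log2 levels of 54675 probe sets deposited by the authors, 1 column for each of 4 arrays. MAS5 and RMA are named, per the submitters' processing notes. Their versions, and which of them made the values, are not given in the sources used here. At equal rank the arrays differed by at most 0.0977, so they had been set to a common scale, so a shift common to all transcripts would not be seen. Array medians were 7.00 to 7.03, and the number of arrays limits the precision.

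After 62 control probe sets and those with a mean under the 30 percentile (6.06) were left out, 38229 remained. Gene names came from the platform annotation (41091 probe sets with 1 symbol, 1801 with several, 11721 with none) and were matched by Entrez identifier to the RefSeq table of GRCh38.p14 for 41037 of them. Probe sets with several symbols named none. The brightest probe set stood for each of 16252 genes. The comparison used limma 3.58.1 in R 4.3.3 (lmFit, eBayes with trend, two-sided, Benjamini-Hochberg over all genes, 9.19 degrees of freedom, 95% intervals), with no replicate block. In 5 simulated runs with changes of known size, the procedure called 61 of 263 changes of 1.25-fold (23.2%) and 219 of 252 of 1.5-fold (86.9%). Each run held many more changed genes than the 10 called in the real data. A Benjamini-Hochberg threshold is looser where more genes change, so these shares are likely too high for the real data. The estimates in the list ran from 0.83-fold for PRIM1 to 1.22-fold for CCND1, so changes of such size would mostly not be called. Promoters were searched in Python 3.11.15.

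All 36 genes are named. Values on every array are given at an unadjusted p under 0.05, for the smallest p in each role and for 6 landmark genes. The members and lists were chosen with earlier results of these data known. Alternatives covered filters, scaling, variance models, the replicate block, the choice of probe set and leaving out each array.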

Additional observations from a re-analysis of the deposited data

How the results depend on the processing

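No member passed the adjusted threshold in 14 of 15 alternatives. The exception was the replicate block, with 1 member: CCND1 (log2 difference 0.28, limma adjusted p = 0.0384). The replicate numbers were not shown to pair the arrays. The deviations of same-numbered arrays correlated at 0.10 across genes, which are not independent, and with 2 arrays a group this cannot settle it. All genes past the threshold numbered 165 with the block, 28 after quantile normalization, 38 after cyclic loess, 99 after median centring and 18 with robust estimation, against 10 as reported. A model fitted over all probe sets, chosen after seeing the data, gave 4. At the unadjusted threshold 2 members were lower after quantile normalization, beside 7.19% of all genes. Counts of higher members were 5 after quantile normalization or cyclic loess, and 0 without the trend or in the model over all probe sets. They were 1 after median centring, with mean probe sets or without _x_at and _s_at types. Over all genes 3.72% to 7.19% were higher in these settings. Member counts and all-gene shares also shifted with an array left out. The list's median was -0.03 to 0.0042 with an array left out. For the other replication genes, 7 were lower and 7 higher after quantile normalization or cyclic loess, with medians of 0.0029 and 0.00083, 5 were higher with the replicate block, and 3 to 19 were lower and 1 to 9 higher with an array left out. Over all genes 5.72% were higher with the replicate block. Among the fits with an array left out, the counts of the other replication genes in either direction were highest without untreated replicate 2. The shares over all genes were highest in that fit too, so the swing was not particular to these genes. With an array left out, the lone array of a group was assumed to vary like the other group. The cause of these shifts was not tested. With 2 arrays a group, differences of the size seen here lay near the spread between arrays.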
